A study of Mus musculus with 26 samples.

Results

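The 39 genes described here encode the enzymes, carriers and regulators of fatty acid oxidation in mitochondria and peroxisomes, and were taken as a fixed list of gene symbols. All 39 were among the 23420 symbols of the deposited table, and each was read in 26 RNA-seq libraries made from sorted mouse antigen-presenting cells of spleen and lung. By their step in the pathway, 17 members were counted as mitochondrial (3 of the carnitine shuttle, 11 matrix enzymes, 3 electron transfer proteins). Another 12 were counted as peroxisomal (2 importers, 10 enzymes). Of these, Eci2, Scp2 and Crot include some with a second location. The remaining 10 were put in neither class (5 for acyl-CoA activation and acetyl-carnitine, 5 regulators and uncoupling proteins), although some, such as Pdk4 and Ucp3, act in mitochondria. Cells came from wild-type littermates (WT) and from mice labelled mTORΔAPC (called KO), in which the kinase mTOR is targeted in antigen-presenting cells. The labels name neither the promoter that drives the deletion nor the number of animals behind a library.

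The sort gave 10 groups. Steady-state spleen gave CD8a dendritic cells (DCs) and CD11b DCs, with 2 WT and 2 KO libraries each. Steady-state lung gave CD11b DCs and alveolar macrophages, the resident phagocytes of the airspace, with 3 WT and 3 KO libraries each. The last pair, 3 WT and 3 KO libraries, was labelled inflammatory DCs and came from lungs exposed to the allergen house dust mite (25 µL at 1 mg/mL through the nose), until day 17 by the sample labels or day 18 by the protocol. No label gives the age or sex of the mice.

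Values are DESeq2-normalized counts, that is, read counts divided by a size factor per library. Libraries held 7366907 to 14145027 reads. Mtor itself stood at 384 and 427 in WT and 40.0 and 68.5 in KO spleen CD8a DCs, and at 396 and 355 against 63.0 and 82.6 in spleen CD11b DCs. In alveolar macrophages it was 387, 332 and 361 against 71.7, 91.4 and 104. The residue was larger in the other lung cells, with 476, 364 and 397 against 298, 316 and 169 in lung CD11b DCs and 404, 345 and 336 against 196, 236 and 218 in inflammatory DCs. The sexes were not balanced: the Y-linked Ddx3y was at most 1.1 in every steady-state WT library but 499.8 and 1603, 462 and 1708 and 829, 326 and 938 in the KO libraries of spleen CD8a DCs, spleen CD11b DCs and alveolar macrophages, so genotype and sex cannot be told apart there. Xist, transcribed in female cells, was 3619.7 and 12.0, 3092 and 21.4 and 1487, 2293 and 572 in the same KO libraries, so several of them held both transcripts. In lung CD11b DCs only KO library 1 held Ddx3y, at 615 against at most 0.7 in the other 2, and in inflammatory DCs every library did. Flt3, the growth factor receptor of DCs, was at 1844 to 7386 in steady-state WT DCs and at most 55.3 in WT alveolar macrophages. Other markers differed within the labelled groups: red pulp macrophage markers summed to 27163 to 46310 in WT spleen CD8a DCs against 4168 to 5755 in WT spleen CD11b DCs, and Flt3 fell to 216 in 1 library of KO lung CD11b DCs. The cells labelled inflammatory DCs held little Flt3 in WT (104, 114 and 170.1) while the macrophage receptor Mertk stood at 2845, 3072 and 2992. Their conventional DC markers summed to 234321 to 274842 in WT, most of it from Cd74 (167378, 153885 and 183042). That sum was 30878 to 32810 in WT alveolar macrophages and 709790 to 818715 in WT lung CD11b DCs. The markers of these cells were thus mixed, and the name is used here only as the label of the sort.

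Fatty acids are activated to acyl-CoA by the long-chain acyl-CoA synthetases (Acsl genes). Long chains enter mitochondria as carnitine esters through Cpt1a, the carrier Slc25a20 and Cpt2, and are then shortened by a cycle of dehydrogenation, hydration, oxidation and thiolysis whose electrons pass through Etfa, Etfb and Etfdh to the respiratory chain. Peroxisomes take up very long and branched chains through ABC transporters such as Abcd2 and Abcd3, and shorten them with an oxidase that makes hydrogen peroxide, which catalase (Cat) destroys, before Crot passes the shortened chains on as carnitine esters. PPAR nuclear receptors (Ppara, Ppard) switch on many of these genes, and lipid handling is a known trait of alveolar macrophages, which clear surfactant. mTOR is a kinase that links nutrients and growth signals to anabolic metabolism.

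Start-site sequences are shown for 5 members on which the results below turn: Cpt1a and Cat, which fell in KO alveolar macrophages, Acaa1b and Ucp3, whose libraries there lay below WT without a call, and Acadl, which rose in KO lung CD11b DCs. Each is the 250 bases before the RefSeq start (RefSeq promoter table, GRCm38.p6), 5′ to 3′ on the gene's strand. Capitals mark the half-site AGGTCA bound by nuclear receptors and the GC box GGGCGG, on either strand, where they occur; the Acaa1b window holds neither.
Cpt1a, chr19:3323051-3323300, plus strand: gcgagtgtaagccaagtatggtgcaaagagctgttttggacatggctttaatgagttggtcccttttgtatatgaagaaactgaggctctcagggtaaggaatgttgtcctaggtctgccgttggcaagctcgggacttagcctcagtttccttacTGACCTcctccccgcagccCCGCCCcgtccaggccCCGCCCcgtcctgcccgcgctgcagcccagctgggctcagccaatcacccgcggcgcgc
Acaa1b, chr9:119157094-119157343, minus strand: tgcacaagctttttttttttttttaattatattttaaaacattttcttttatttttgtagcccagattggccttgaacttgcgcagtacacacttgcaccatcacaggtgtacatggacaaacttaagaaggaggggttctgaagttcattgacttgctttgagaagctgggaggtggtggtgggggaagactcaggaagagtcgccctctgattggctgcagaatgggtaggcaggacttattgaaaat
Ucp3, chr7:100472741-100472990, plus strand: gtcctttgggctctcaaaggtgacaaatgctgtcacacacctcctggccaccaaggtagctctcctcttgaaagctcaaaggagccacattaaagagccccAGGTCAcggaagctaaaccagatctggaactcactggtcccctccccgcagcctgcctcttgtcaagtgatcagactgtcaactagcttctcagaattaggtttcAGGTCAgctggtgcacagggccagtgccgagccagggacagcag
Cat, chr2:103485154-103485403, minus strand: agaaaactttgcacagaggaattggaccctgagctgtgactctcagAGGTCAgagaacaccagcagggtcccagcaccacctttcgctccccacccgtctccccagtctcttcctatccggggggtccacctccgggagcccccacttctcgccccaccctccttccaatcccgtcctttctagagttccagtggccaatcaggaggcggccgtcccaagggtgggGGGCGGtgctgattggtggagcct
Acadl, chr1:66863310-66863559, minus strand: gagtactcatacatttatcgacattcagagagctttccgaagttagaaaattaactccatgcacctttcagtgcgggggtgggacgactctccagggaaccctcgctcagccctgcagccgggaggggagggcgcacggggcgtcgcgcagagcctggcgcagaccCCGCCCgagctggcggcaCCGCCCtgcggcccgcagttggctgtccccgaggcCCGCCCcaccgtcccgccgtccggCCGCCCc
Windows were found for 34 of the 39 members. The half-site was in 7 of them (20.6%; Cpt1a, Acadm, Acadvl, Echs1, Scp2, Cat and Ucp3), against 15.8% of all 27025 symbols with a window. The GC box was in 24 (70.6%) against 35.4%. All members are protein coding, whereas the background was not limited to protein-coding or expressed genes, so the 2 shares are not of like genes. The direct repeat AGGTCANAGGTCA, the form PPARs bind, was in 0 members and in 0.04% of all symbols.

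In WT cells the alveolar macrophages stood highest for most of the pathway, with mitochondrial and peroxisomal members both above lung CD11b DCs. Of the 38 members tested, 33 were higher and 1 lower in WT alveolar macrophages than in WT lung CD11b DCs, where 51.2% of all 13311 tested genes were called in either direction, 24% higher and 27.2% lower. A gene was called at a Benjamini-Hochberg adjusted p under 0.05 in limma, fitted to log2(normalized count + 1). All 17 mitochondrial members were higher, with a median log2 difference of 1.14, as were 11 of 12 peroxisomal members, with a median of 1.39, against a median of -0.013 over all tested genes. The untested member was Ppara, listed at 1.8 in 1 inflammatory DC library and at 0 in the other 25. In 24 members all 3 WT alveolar macrophage libraries lay above every other WT library, a pattern found in 11.6% of all tested genes.

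Cpt1a (chromosome 19, 3322334 to 3385733 of GRCm38, protein coding), the carnitine palmitoyltransferase that gates mitochondrial entry, was 466 and 645 in WT spleen CD8a DCs and 414 and 431 in spleen CD11b DCs. It was 1500.4, 1282 and 1540.5 in lung CD11b DCs, 2829, 2383 and 2327 in inflammatory DCs and 4947, 5084 and 4862 in alveolar macrophages. No 2 of these groups overlapped, but the difference between the spleen groups was not called (0.38 ± 0.17, adjusted p = 0.115). The lung CD11b DCs exceeded spleen CD11b DCs by 1.76 ± 0.15, adjusted p = 3.29e-09. Cpt2, the inner-membrane partner of Cpt1a, was at 786, 788 and 783 in WT alveolar macrophages and between 123 and 243 in every WT steady-state DC library.

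The 4 members with the smallest p in this comparison came from both organelles. Hsd17b4, the peroxisomal bifunctional enzyme for the hydration and oxidation steps, was 3889, 3949 and 3766 in WT alveolar macrophages and 1339, 1313 and 1375 in WT lung CD11b DCs (1.53 ± 0.09, adjusted p = 5.43e-13). Abcd2, a peroxisomal importer of very long-chain fatty acyl-CoA, was 3974, 3707 and 4002 against 197, 319 and 198 (4.06 ± 0.24, adjusted p = 9.08e-13). Acox3, the oxidase for branched chains, differed by 1.23 ± 0.09, adjusted p = 1.94e-11. Hadha, the alpha subunit of the mitochondrial trifunctional protein, differed by 1.54 ± 0.11, adjusted p = 2.86e-11. The one member that was lower was Acsl3, an acyl-CoA synthetase of the endoplasmic reticulum and lipid droplets (-1.59 ± 0.36, adjusted p = 0.00068).

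A further set of members was close to silent outside alveolar macrophages and inflammatory DCs. Acaa1b, a peroxisomal thiolase, was 1554, 1559.7 and 1432 in WT alveolar macrophages, at most 38.2 in any inflammatory DC library and at most 18.4 in any other DC library. Its ratio over WT lung CD11b DCs was 121 (88.2 to 170, exact 95% interval for counting error only). Ucp3, an uncoupling protein of the inner mitochondrial membrane, was 946, 899.6 and 949.8 there and 284, 151 and 208 in WT inflammatory DCs, against 3 reads in the 3 WT lung CD11b DC libraries together, which gives a ratio of 966 (330 to 4690). Pdk4, a mitochondrial kinase that inhibits pyruvate dehydrogenase, was 361, 257 and 337 in WT alveolar macrophages and 0 in WT lung CD11b DCs. It was hence at least 330-fold higher by a floor of 3 reads over the group. Such genes passed the filter on low values only through the groups where they are high. The filter asked for 10 normalized counts in 2 libraries, 38 members passed it, and 33 were at 10 or more in every library.

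**Figure D1:**
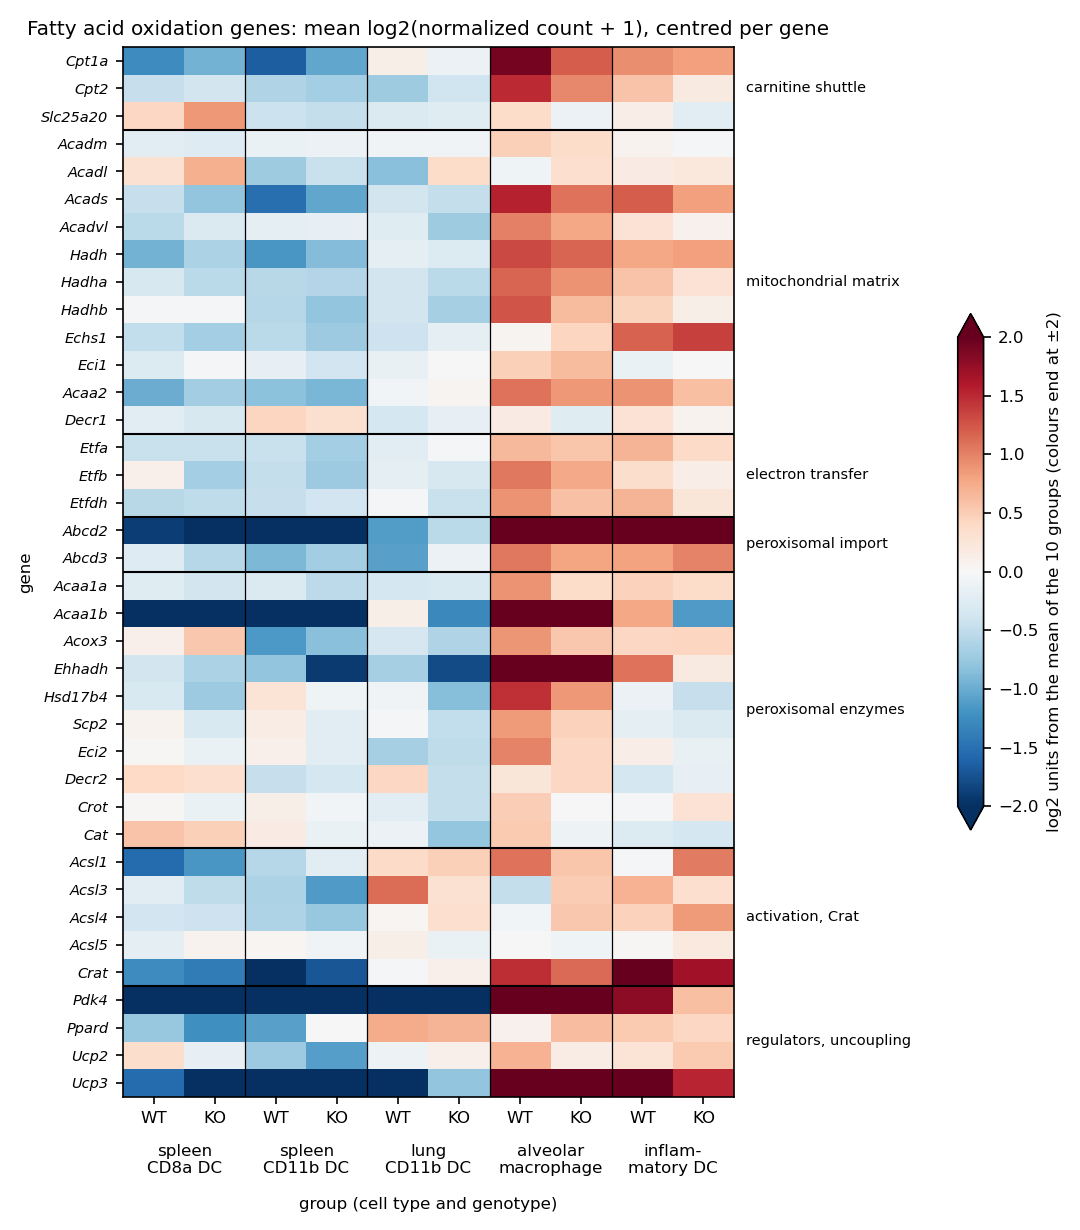
Mean log2(normalized count + 1) of the 38 tested members (rows, by role) in the 10 groups (columns, WT and KO of each cell type), as the distance from each gene's mean over the 10 groups. Red is higher and blue lower; the alveolar macrophage columns are reddest for most members and for most the WT column is redder than the KO column beside it.

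The WT inflammatory DCs came next. Compared with WT lung CD11b DCs, 25 members were higher and 2 lower (47.5% of all genes called, 23.7% higher and 23.8% lower). With libraries scaled to equal totals, which lowers the median of all genes in this comparison to -0.24, the split was 20 higher and 6 lower, of 49.8% of genes called. Abcd2 stood at 3342, 3511 and 3249 (3.85 ± 0.24, adjusted p = 1.17e-11). Echs1, the mitochondrial enoyl-CoA hydratase, was 1615, 1726 and 1396 against 510.3, 468 and 586 (1.60 ± 0.12, adjusted p = 4.2e-10), and Crat, which makes acetyl-carnitine, was 1698, 1568 and 1909 against 349.9, 542 and 358 (2.07 ± 0.17, adjusted p = 1.13e-09). For Echs1, Crat and Acsl4 the WT inflammatory DCs, not the alveolar macrophages, lay above every other WT library. These were 3 of 38 members, a share not above the 9.7% of all genes with this pattern. Ucp3 was 228 times its level in WT lung CD11b DCs (77.6 to 1110). Treatment with house dust mite, cell type and sex cannot be told apart in this comparison. Ddx3y was 605, 1096 and 1007 in WT inflammatory DCs and at most 1.1 in WT lung CD11b DCs. Xist was 717.5, 5.8 and 5.0 against 3761, 3634 and 3573. None of 14 alveolar macrophage markers was at 0 in the WT inflammatory DCs, and their summed level was 816721 to 1190258, most of it from Chi3l3 (1135997, 784487 and 814207), against 338918 to 349985 in WT alveolar macrophages. Single markers differed: Krt79 stood at 3605, 956 and 1741 against 4902, 4701 and 4949 in WT alveolar macrophages, and Ear1 at 297, 80.5 and 194 against 6600.4, 6605 and 6424. Their part in the result was not tested. In bulk samples, fewer cells of a type and less RNA per cell cannot be told apart.

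Among the DCs, tissue and subset shifted fewer members. WT lung CD11b DCs exceeded WT spleen CD11b DCs for 15 members and fell below them for 4 (34.9% of all genes called, 21.1% higher and 13.8% lower), or 14 and 8 with equal totals (41.8% called), where the median of all genes was -0.20. Crat was 349.9, 542 and 358 in lung against 87.0 and 109 in spleen (2.05 ± 0.19, adjusted p = 1.04e-08). Acox3 (0.80 ± 0.10, adjusted p = 4.73e-07) and the mitochondrial thiolase Acaa2 (0.76 ± 0.12, adjusted p = 3.5e-05) followed Cpt1a. In the spleen, CD8a DCs were higher than CD11b DCs for 10 members and lower for 2 (23% of all genes called, 12.2% higher and 10.8% lower). Acox3 was 1678 and 1608 in CD8a DCs and 725 and 663 in CD11b DCs (1.24 ± 0.10, adjusted p = 4.82e-09). Ucp2, an uncoupling protein relative abundant in leukocytes, was 8937 and 10744 against 3998 and 5419.5 (1.07 ± 0.12, adjusted p = 7.1e-07). Acadl, the long-chain acyl-CoA dehydrogenase of the matrix, was also higher in CD8a DCs (1.00 ± 0.14, adjusted p = 7.65e-06), whereas Hsd17b4 was lower (-0.58 ± 0.11, adjusted p = 0.000239). Fitted on these 4 libraries alone, Ucp2 and Hsd17b4 were not called (adjusted p = 0.0856 and 0.0855). Red pulp macrophage markers were higher in the same CD8a libraries for 7 of 8, and monocyte and macrophage markers for 10 of 14, with 3 lower; their part in the result was not tested. The comparisons of alveolar macrophages, inflammatory DCs and spleen CD11b DCs with lung CD11b DCs share the WT lung CD11b libraries, and both comparisons within DCs share the WT spleen CD11b libraries. Per kilobase of merged exons and averaged over the 5 WT cell types, Ucp2 stood at 1246 normalized counts, Cat at 906, Etfb at 869 and Ppard at 3.98. The order differed between cell types: in spleen CD11b DCs Cat (882) was above Ucp2 (674), and in alveolar macrophages Etfb (1492) was above Cat (1123).

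In KO alveolar macrophages members of both organelles fell, among them Cpt1a, Cat and Hsd17b4, while Acadl, Echs1 and Acsl4 rose. Among the 38 members, 11 fell and 3 rose (16.9% of all genes called, 6.39% lower and 10.5% higher). Their median log2 difference was -0.29, against 0.02 over all tested genes. In 26 members all 3 KO libraries lay below all 3 WT libraries, which held for 21.5% of all genes, and in 7 all lay above (23.1%). In 29 members, which include some that rose in the KO and leave out Cat, Crot and Acsl1, the KO alveolar macrophages lay above every WT lung CD11b DC library, against 28.3% of all genes.

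Peroxisomal enzymes made up 7 of the 11 that fell. Cat (chromosome 2, 103453849 to 103485160), which removes hydrogen peroxide, fell from 2966, 2970.4 and 2867 to 1929, 1902 and 1870.0 (-0.63 ± 0.09, adjusted p = 1.15e-05). WT libraries held Hsd17b4 at 3889, 3949 and 3766 and KO libraries at 2566, 2531 and 2591 (-0.59 ± 0.09, adjusted p = 1.94e-05). In both genes every KO library lay well below the lowest WT library.
Acaa1a, the thiolase that ends the peroxisomal cycle, was 1556, 1689.9 and 1665 against 1207, 1024 and 1166 (-0.53 ± 0.10, adjusted p = 0.000634), again without overlap. Eci2, Acox3, Scp2 and Crot also fell, by log2 -0.57, -0.35, -0.38 and -0.50. Crot lost its call without WT library 1 (-0.47, adjusted p = 0.0539) or KO library 1 (-0.43, adjusted p = 0.0697). Acaa1b was 1554, 1559.7 and 1432 against 643, 699 and 718, with no overlap, but was not called (-1.14 ± 0.64, adjusted p = 0.27) in a fit whose spread is shared with the groups where it is near 0. It was called in the fit of the 6 alveolar macrophage libraries alone (adjusted p = 0.000364) and with array weights (adjusted p = 0.0473). The 2 thiolase genes are near-identical, with 35.5% of the 50-base windows of the Acaa1b transcript found in Acaa1a, so reads could be split between them.

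Of the mitochondrial members, Cpt1a and Hadhb fell. WT libraries held Cpt1a at 4947, 5084 and 4862 and KO libraries at 2955, 3125 and 3129 (-0.69 ± 0.14, adjusted p = 0.00071). Hadhb, the beta subunit of the trifunctional protein, was 1320.3, 1388 and 1483 against 922, 827 and 989 (-0.62 ± 0.13, adjusted p = 0.00108), and 62.4% of its 50-base windows also occur in other annotated loci. Its partner Hadha, transcribed in the other direction from the neighbouring start, was 1552, 1632 and 1612 against 1326, 1264 and 1392 and was not called (-0.27 ± 0.11, adjusted p = 0.0983). Cpt2, at 786, 788 and 783 against 467, 560.0 and 612, was not called either (-0.53 ± 0.22, adjusted p = 0.105). Both were called in the fit of the 6 libraries alone (Hadha, adjusted p = 0.0107, and Cpt2, adjusted p = 0.0151) and with array weights (adjusted p = 0.00348 and 0.00825).
Acadl rose instead, from 837, 891 and 866 to 1245, 1136 and 1096 (0.42 ± 0.11, adjusted p = 0.0102), a call lost without KO library 1 (0.37, adjusted p = 0.0575). Echs1 rose by log2 0.38 (adjusted p = 0.0359), and lost its call in each of 6 fits that left out 1 of its libraries (0.34 to 0.41, adjusted p = 0.0589 to 0.13).

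Outside the 2 classes, Ucp2 fell from 12523, 12286 and 12549.5 to 8160.4, 8169.5 and 9151 (-0.55 ± 0.10, adjusted p = 0.000336). Acsl4, an X-linked synthetase that prefers arachidonic acid, rose by log2 0.60 (adjusted p = 0.0025), in libraries where genotype and sex cannot be told apart. Acsl1 fell, with a log2 difference of -0.54 (adjusted p = 0.0211), a call lost without WT library 1, WT library 3, KO library 2 or KO library 3 (-0.54 to -0.49, adjusted p = 0.051 to 0.0895). WT libraries held Pdk4 at 361, 257 and 337 and KO libraries at 748, 556 and 592 (0.99 ± 0.67, adjusted p = 0.392), and Ucp3 946, 899.6 and 949.8 against 353, 512 and 426 (-1.13 ± 0.71, adjusted p = 0.344); neither was called although their libraries did not overlap. In the fit of the 6 libraries alone both were (adjusted p = 0.0112 for Pdk4 and 0.00376 for Ucp3), and with array weights neither was (0.127 and 0.0835). Ehhadh, the other peroxisomal bifunctional enzyme, overlapped between genotypes (-0.20 ± 0.33, adjusted p = 0.788).

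How many members changed here depended on the spread used. Fitted on the 6 alveolar macrophage libraries alone, 22 members fell and 5 rose, with 29% of all genes called, and the 14 above were among them. Then 10 of 17 mitochondrial and 8 of 12 peroxisomal members fell, in place of 2 of 17 and 7 of 12 in the fit of all 26 libraries. With array weights 21 fell and 4 rose, with 33.9% of all genes called. Of 14 alveolar macrophage markers in the table, 4 were called lower and 1 higher in the KO, and none was at 0. Their summed level was 338918 to 349985 in WT and 206797 to 226881 in KO, most of it from Chi3l3. Whether called or not, all KO libraries lay below all WT libraries for Siglec5, Chi3l3, Ear1, Ear2, Fabp4, Fabp1, Krt79, Pparg, Mrc1, Cidec and Krt19. They lay above all WT libraries for Marco, Car4 and Itgax. These 2 patterns held for 21.5% and 23.1% of all genes. Markers of other cells rose in the same KO libraries: 5 of 7 T cell markers (summed level 57.5 to 64 in WT and 1850.3 to 2139 in KO, most of it Il7r), 7 of 14 monocyte and macrophage markers with 1 lower, 3 of 6 neutrophil markers and 3 of 7 NK cell markers. The part of these markers in the result was not tested.

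**Figure D2:**
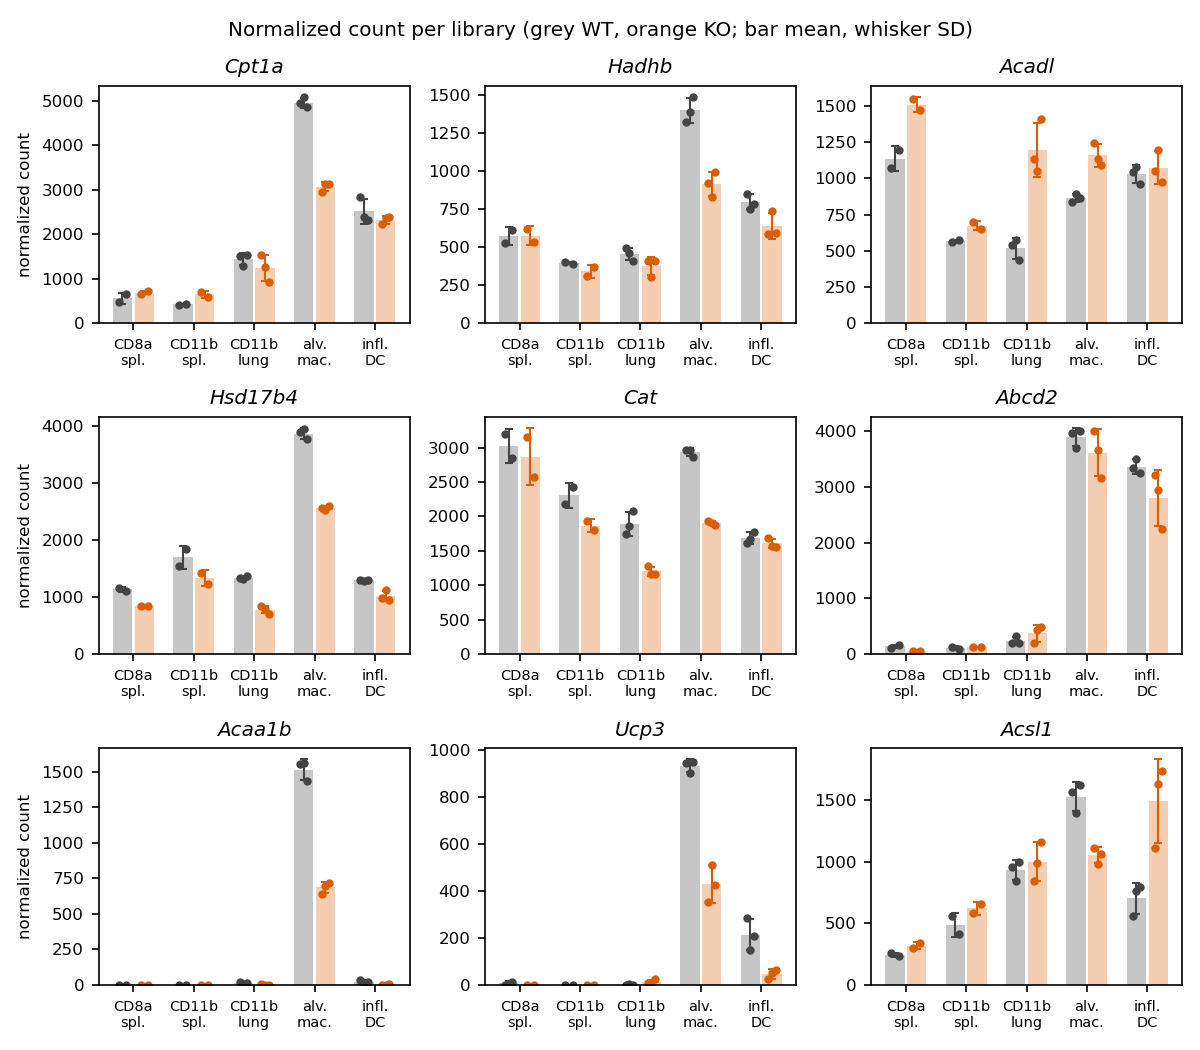
Normalized counts of 9 members in each library (points), with the group mean (bar) and SD (whisker), WT grey and KO orange, for the 5 cell types. KO alveolar macrophages lie below WT for Cpt1a, Hadhb, Hsd17b4, Cat, Acaa1b and Ucp3, KO lung CD11b DCs lie above WT for Acadl, and KO inflammatory DCs lie above WT for Acsl1.

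In KO lung CD11b DCs peroxisomal enzymes fell and Acadl, a mitochondrial dehydrogenase, rose more than any other member with abundant reads. Among the 38 members, 8 fell and 3 rose, 28.9% in all against 26.1% of all genes (12% higher and 14% lower), so the number called was near the background. In 8 members the KO libraries lay below all WT libraries and in 3 above, against 15% and 13.6% of all genes. Of the 12 peroxisomal members 6, all enzymes, fell and 1, the importer Abcd3, rose, with a median log2 difference of -0.365 against -0.049 over all tested genes. Of the 17 mitochondrial members 2 fell and 1 rose, with a median of 0.007.

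Acadl (chromosome 1, 66830839 to 66863277) rose from 542, 576 and 435 to 1136, 1052 and 1408 (1.21 ± 0.11, adjusted p = 4.8e-08). Every KO library lay far above the highest WT library.
Hsd17b4 fell from 1339, 1313 and 1375 to 846, 787 and 709 (-0.79 ± 0.09, adjusted p = 5.11e-07). Cat fell from 1739.8, 1861 and 2077 to 1278, 1165 and 1162 (-0.65 ± 0.09, adjusted p = 7.02e-06). Scp2, a thiolase and lipid carrier for branched chains, was 804, 869 and 1015 against 695, 621 and 635 (-0.46 ± 0.10, adjusted p = 0.00114). In these 3 genes and in Decr2 the genotypes did not overlap. Decr2, the peroxisomal dienoyl-CoA reductase for unsaturated chains, was 316, 359.5 and 318 against 137, 155 and 263 (-0.89 ± 0.19, adjusted p = 0.00138). Its mitochondrial counterpart Decr1 was not called (0.18 ± 0.19, adjusted p = 0.533).

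The other calls in lung CD11b DCs were less stable. Ehhadh was 40.1, 37.0 and 48.4 against 27.1, 8.2 and 28.3 (-1.11 ± 0.33, adjusted p = 0.016), and the call was lost without WT library 3 (-1.01, adjusted p = 0.0519) or KO library 2 (-0.57, adjusted p = 0.127). Acox3 was 1257, 1196 and 1172 against 1009.6, 981 and 1025 (-0.27 ± 0.09, adjusted p = 0.024), lost without WT library 1 (-0.24, adjusted p = 0.0817) or KO library 2 (-0.25, adjusted p = 0.0668). Abcd3 rose by log2 0.97 (adjusted p = 0.0213) with overlapping libraries, and without WT library 3 the difference was 0.46 (adjusted p = 0.177) and without KO library 3 it was 0.77 (adjusted p = 0.105).
Etfdh and Acadvl fell, with log2 differences of -0.43 and -0.47, each losing its call without any 1 of WT library 1, WT library 2, KO library 2 and KO library 3 (adjusted p = 0.0709 to 0.13 for Etfdh and 0.0514 to 0.308 for Acadvl, whose difference was -0.22 without KO library 2). Ucp3 was called higher from 0, 3.2 and 0 to 6.8, 2.5 and 23.6 (2.44 ± 0.71, adjusted p = 0.0143), on 3 and 45 reads in all, a ratio of 12.5 (4.01 to 62.9), and not without WT library 1, WT library 3 or KO library 3 (1.69 to 2.09, adjusted p = 0.058 to 0.102). Cpt1a was 1500.4, 1282 and 1540.5 against 1531, 1265 and 934 and not called (-0.24 ± 0.14, adjusted p = 0.215), although it was without KO library 1 (-0.40, adjusted p = 0.0248). Cpt2 was not called (0.31 ± 0.22, adjusted p = 0.317).

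The libraries of this group differed in more than genotype. Without KO library 1, the one that held Ddx3y, 17 members and 4267 of all 13311 tested genes were called. Without WT library 1, KO library 2 or KO library 3, 7 members were called, with 2967, 2788 and 2918 of all genes. With all libraries it was 11 members and 3471 genes, so the calls over all genes moved in the same direction. Fitted on these 6 libraries alone, 3 members (Acadl, Hsd17b4 and Cat) were called, with 6.43% of all genes, and Scp2 (adjusted p = 0.08) and Decr2 (adjusted p = 0.119) were not. Of 7 conventional DC markers, 4 fell and 1 rose, with a summed level of 709790 to 818715 in WT and 426094 to 484907 in KO, and none was at 0. WT libraries held Flt3 at 3066, 3053 and 1844 and KO libraries at 1071, 598 and 216, while the macrophage and monocyte receptor Fcgr1 was 206, 144 and 378 against 1180.1, 1865 and 1755. Of 14 alveolar macrophage markers 8 fell and 1 rose in the same KO libraries, with a median log2 difference of -1.25, and 5 of 14 monocyte and macrophage markers rose and 1 fell. The part of these markers in the result was not tested.

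In KO inflammatory DCs Acsl1 rose and Hsd17b4 fell, the 2 members called of 38 (3.37% of all genes called, 1.45% higher and 1.92% lower). Acsl1, the synthetase for long-chain fatty acids, rose from 560.1, 759 and 796 to 1109, 1634 and 1740.2 (1.07 ± 0.16, adjusted p = 0.000529), with no overlap, and kept its call without each library in turn but not in the fit of these 6 libraries alone (adjusted p = 0.127). Hsd17b4 fell from 1297, 1289.7 and 1301 to 986, 1125 and 947 (-0.35 ± 0.09, adjusted p = 0.0219); the call was lost without WT library 1, 2 or 3 or without KO library 1 or 3 (-0.35 to -0.30, adjusted p = 0.0517 to 0.124).
Fitted on these 6 libraries alone, no member and none of all tested genes was called, with 14 members at an unadjusted p under 0.05. In the fit of all libraries 16 members had an unadjusted p under 0.05, the members' median was -0.21 against -0.016 over all tested genes, and in 11 members all KO libraries lay below all WT libraries and in 5 above, against 11.1% and 9.83% of all genes. Members that were not called included Cpt1a (-0.11 ± 0.14, adjusted p = 0.85), Cpt2 (-0.39 ± 0.22, adjusted p = 0.484), Acox3 (0.02 ± 0.09, adjusted p = 0.971), Ehhadh (-0.91 ± 0.33, adjusted p = 0.165) and Pdk4 (-1.18 ± 0.67, adjusted p = 0.49). Ehhadh was called with array weights (-0.94, adjusted p = 0.0234) and by DESeq2 (-0.96, adjusted p = 0.0142). Pdk4 lay at 72.9, 3.5 and 24.0 in WT and 10.5, 4.0 and 11.3 in KO, and was called without WT library 2 (-2.27, adjusted p = 0.0284). Ucp3 was 284, 151 and 208 against 23.9, 49.1 and 64.1, without overlap and without a call (-2.27 ± 0.71, adjusted p = 0.0896). In the KO of this group 6 of 14 alveolar macrophage markers and 4 of 7 conventional DC markers fell and 1 of each rose, and their part in the result was not tested.

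In KO spleen CD8a DCs 4 members fell and 1 rose (5.13% of all genes called, 1.5% higher and 3.63% lower). Etfb, a subunit of the electron transfer flavoprotein, fell from 807 and 998 to 539.8 and 512 (-0.77 ± 0.17, adjusted p = 0.00676), and 67.3% of its 50-base windows occur in another annotated locus. Abcd2 was 116 and 160.2 against 57.7 and 56.4 (-1.24 ± 0.29, adjusted p = 0.00961). Ucp2 was 8937 and 10744 against 6883 and 6886 (-0.51 ± 0.12, adjusted p = 0.014).
Hsd17b4 was 1166 and 1102 against 843 and 846 (-0.42 ± 0.11, adjusted p = 0.0159). Acox3 alone rose, from 1678 and 1608 to 2422 and 2068 (0.45 ± 0.10, adjusted p = 0.00958). The genotypes did not overlap in any of these 5 genes. Over all 38 members 11 lay wholly below WT and 9 wholly above, against 23.6% of all genes with KO below WT and 23.1% with KO above.
With 2 libraries a side each call was lost without at least 1 library: without WT library 1 the adjusted p of Hsd17b4 was 0.108, without WT library 2 that of the other 4 was 0.0744 to 0.181, without KO library 1 it was 0.0708 to 0.207 for all but Etfb, and without KO library 2 it was 0.0732 to 0.0974 for all but Acox3. The number called was then 1 without WT library 2, KO library 1 or KO library 2. Fitted on these 4 libraries alone, limma called no member and no gene, with 10 members at an unadjusted p under 0.05. Red pulp macrophage markers fell with the genotype (7 of 8, summed level 27163 to 46310 in WT and 4954 to 5430 in KO), as did 10 of 14 monocyte and macrophage markers; their part in the result was not tested. Cpt1a (0.32 ± 0.17, adjusted p = 0.337), Cpt2 (0.10 ± 0.27, adjusted p = 0.935) and Ehhadh (-0.26 ± 0.41, adjusted p = 0.855) were not called, and Pdk4 was listed at 0 in every spleen library.

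In KO spleen CD11b DCs limma called 0 members, with 9 at an unadjusted p under 0.05 and 1.52% of all genes called (1.28% higher and 0.233% lower). On the recovered reads edgeR called 0 members (1.11% of all genes) and DESeq2 called 3 (2.71%). In 12 members both KO libraries lay below both WT libraries and in 7 above, against 23.5% and 24.5% of all genes. WT libraries held Cpt1a at 414 and 431 and KO libraries at 705 and 587 (0.61 ± 0.17, adjusted p = 0.0748), with no overlap, a difference called by DESeq2 (0.61, adjusted p = 0.0295). Hsd17b4 (-0.35 ± 0.11, adjusted p = 0.104), Acox3 (0.31 ± 0.10, adjusted p = 0.153), Cpt2 (-0.08 ± 0.27, adjusted p = 0.989) and Ehhadh (-1.14 ± 0.41, adjusted p = 0.198) were not called. With array weights Cpt1a (adjusted p = 0.00585) and Ehhadh (adjusted p = 0.0259) were.

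**Figure D3:**
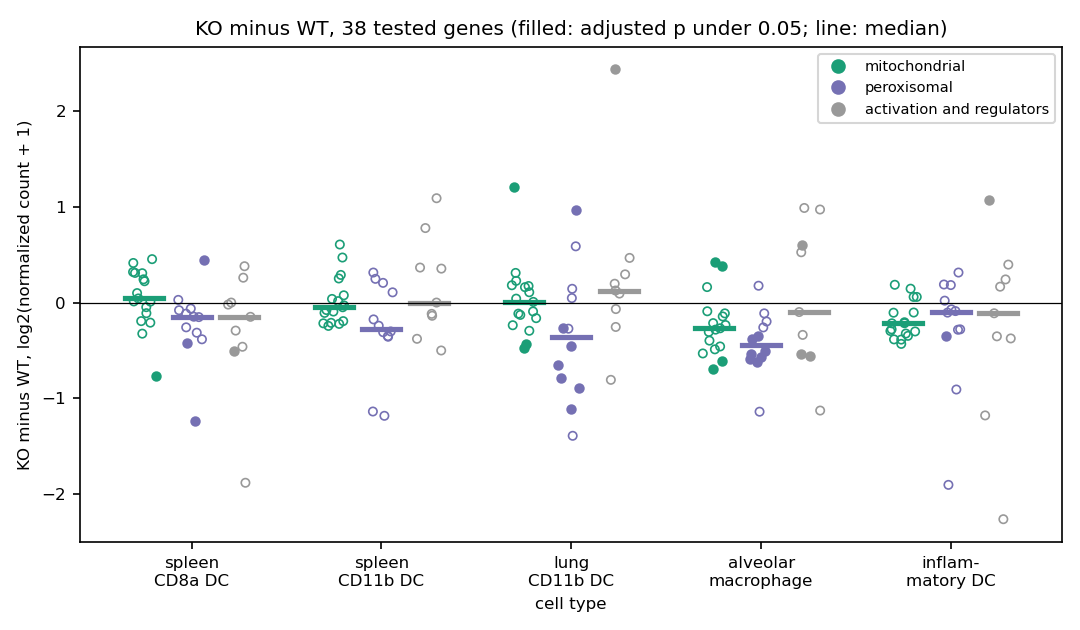
Difference KO minus WT in log2(normalized count + 1) for the 38 tested members in each cell type, by class (green mitochondrial, purple peroxisomal, grey activation and regulators); filled points have an adjusted p under 0.05 and lines are class medians. The peroxisomal median lies below the mitochondrial one in 4 cell types and above it in inflammatory DCs, where they are -0.10 and -0.22.

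Averaged over the 5 cell types with equal weight, 12 members fell and 3 rose (17.7% of all genes called, 9.53% higher and 8.17% lower). The fit treats libraries as independent, and the labels do not say whether those of different cell types came from the same animals. If they did, the errors may be too small. Genotype and sex cannot be told apart in spleen CD8a DCs, spleen CD11b DCs and alveolar macrophages, which enter this mean. Hsd17b4 was lower in all 5 cell types and had the smallest p (-0.50 ± 0.04, adjusted p = 1.22e-08). Cat (-0.35 ± 0.04, adjusted p = 3.36e-06) and Scp2 (-0.34 ± 0.05, adjusted p = 1.72e-05) followed among the peroxisomal members, of which 7 of 12 fell and 0 rose. Acaa1b, 1 of these 7, was under 10 in 15 libraries. It was not called by edgeR (adjusted p = 0.24) or DESeq2 (adjusted p = 0.0711). Etfdh, 1 of the mitochondrial falls, lost its call in 16 of the 26 fits without 1 library. Of the 17 mitochondrial members 4 fell and 1, Acadl, rose (0.47 ± 0.06, adjusted p = 1.62e-06). Scp2 shares 41.4% of its 50-base windows with an annotated pseudogene.

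Set against each other in single libraries, the 2 classes moved together across cell types and apart by small amounts. Each library's class median was taken over its members after centring each gene on its mean over the 26 libraries. The mitochondrial median was 0.91 to 0.99 log2 units in WT alveolar macrophages and 0.57 to 0.68 in the KO, and the peroxisomal median was 0.88 to 0.90 and 0.45 to 0.53. In lung CD11b DCs the mitochondrial median overlapped between WT (-0.34 to -0.28) and KO (-0.34 to -0.25), and the peroxisomal one did not (-0.42 to -0.33 against -0.63 to -0.55). The mitochondrial median minus the peroxisomal one was therefore 0.03 to 0.13 in WT lung CD11b DCs and 0.29 to 0.39 in the KO. In alveolar macrophages that difference was 0.005 to 0.106 in WT and 0.125 to 0.162 in the KO, also without overlap. In inflammatory DCs that difference overlapped between WT (0.15 to 0.47) and KO (0.12 to 0.32). Its lowest value was in WT spleen CD8a DCs, at -0.43 to -0.30, against -0.17 to -0.13 in the KO.

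**Figure D4:**
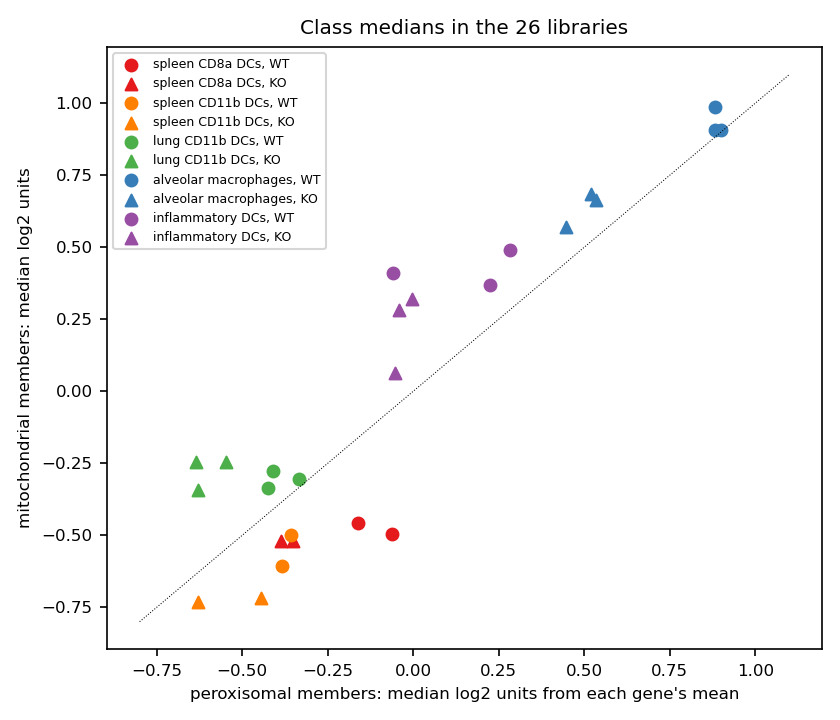
Median of the mitochondrial members (vertical axis) against that of the peroxisomal members (horizontal axis) in each of the 26 libraries, in log2 units from each gene's mean; circles are WT, triangles KO, and the dotted line marks equal medians. WT alveolar macrophages lie at the upper right, and KO lung CD11b DCs lie to the left of WT at the same height.

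Other genes of the pathway were taken from 3 lists drawn up beside the members. In KO lung CD11b DCs 28.6% of other mitochondrial genes, 31.6% of other peroxisome genes and 36.4% of other regulators were called, against 26.1% of all genes, and in KO alveolar macrophages 14.3%, 23.7% and 31.8%, against 16.9%. Of 28 other mitochondrial oxidation genes tested, 6 fell and 2 rose in lung CD11b DCs of the KO, 1 rose and 3 fell in KO alveolar macrophages, 1 fell in KO inflammatory DCs and none changed in either spleen subset. Of 38 other peroxisome genes tested, 2 rose and 10 fell in lung CD11b DCs, 2 rose and 7 fell in alveolar macrophages, 1 rose and 1 fell in inflammatory DCs, and 2 fell in spleen CD8a DCs. Of 22 other regulators, 4 rose and 4 fell in lung CD11b DCs, 2 rose and 5 fell in alveolar macrophages, 2 rose in inflammatory DCs, 4 fell in spleen CD8a DCs and 1 rose in spleen CD11b DCs.
In KO alveolar macrophages Far1, a reductase of ether lipid synthesis, fell (-0.89 ± 0.14, adjusted p = 6.05e-05), as did Nrip1, a corepressor of nuclear receptors (-0.72 ± 0.12, adjusted p = 9.99e-05). Slc27a1, a fatty acid transporter, rose (1.35 ± 0.22, adjusted p = 7.99e-05).
In KO lung CD11b DCs the carnitine transporter Slc22a5 fell (-1.27 ± 0.16, adjusted p = 2.83e-06). The pyruvate dehydrogenase kinase Pdk1 (-0.97 ± 0.16, adjusted p = 8.25e-05) fell as well, and the peroxiredoxin Prdx5 rose (0.82 ± 0.15, adjusted p = 0.000247).
In KO inflammatory DCs Prdx5 (0.91 ± 0.15, adjusted p = 0.00103) and Pdk1 (0.59 ± 0.16, adjusted p = 0.0407) rose, while Bdh1, a ketone body dehydrogenase, fell (-3.06 ± 0.81, adjusted p = 0.0366).
In KO spleen CD8a DCs the nuclear receptor Pparg (-1.94 ± 0.26, adjusted p = 1.61e-05), its coactivator Ppargc1b (-2.71 ± 0.56, adjusted p = 0.0033), the dehydrogenase Idh1 (-1.34 ± 0.18, adjusted p = 2.19e-05) and the lipolysis inhibitor Hilpda (-1.73 ± 0.33, adjusted p = 0.00157) fell, in the same libraries in which red pulp macrophage markers fell.

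Tests of whether the KO effect differed between cell types called 6 members for lung against spleen CD11b DCs, 2 higher and 4 lower (12.5% of all genes called, 5.86% higher and 6.6% lower). They called 7 for alveolar macrophages against lung CD11b DCs, 2 higher and 5 lower (16.8%, 10.2% higher and 6.6% lower). For inflammatory against lung CD11b DCs they called 7, 4 higher and 3 lower (13%, 6.08% higher and 6.95% lower). For the 2 spleen subsets limma called 0 (2.45%, 0.195% higher and 2.25% lower). In that last test 6 members had an unadjusted p under 0.05, edgeR called 0 (1.73% of all genes) and DESeq2 called 1 (2.78%). The labels do not say whether the libraries of the 2 spleen subsets came from the same animals. With equal totals the split for lung against spleen CD11b DCs was 3 and 3. The other 3 tests share the lung CD11b DC libraries. Acadl was called in all 3 that involve lung CD11b DCs, where its KO difference was 1.21 against 0.25, 0.42 and 0.06 in spleen CD11b DCs, alveolar macrophages and inflammatory DCs. Fitted on the groups compared alone, no member was called for lung against spleen CD11b DCs, Acadl included (adjusted p = 0.0581), with 8 members at an unadjusted p under 0.05.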

How the data were processed

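RNA of sorted cells was sequenced after Clontech and Nextera XT preparation, per the labels' protocols. Per the submitters' processing notes, the authors used STAR 2.3.1s (mm10), HTSeq and DESeq2 1.10.1; the annotation and strand setting are not given in the sources used here. In the deposited table each value is a signal per gene symbol, the count divided by a size factor, given by the authors for 26 libraries. Steps between values gave back whole reads for 100% of values (tolerance 1e-06), with size factors of 0.754 to 1.48.

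From these, log2(value + 1) was fitted with limma 3.58.1 (R 4.3.3), 1 mean per group over all 26 libraries with a mean-variance trend, for the 13311 genes at 10 or more in at least 2 libraries. Adjustment was by Benjamini-Hochberg within each comparison. Errors are moderated standard errors. The p-values measure spread between libraries, which nothing in the labels ties to separate animals. Alternatives were another pseudocount, no filter, other scalings, array weights, edgeR 4.0.16 and DESeq2 1.42.0 on the recovered reads, only the groups compared, and each library left out. On simulated data (5 draws, 200 changed genes of 13080) the fit recovered 46.6% to 61.5% of 2-fold changes over the 5 KO comparisons, and 6.6% to 11.6% of its calls were false. Each simulated gene had the same spread in every group and no shift with sex or markers, so these rates may not carry over to the real libraries.

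The members and lists were chosen with earlier results of these data known. Members with full statistics are the called ones with the smallest p (up to 6 per KO comparison, 4 per other comparison), and Cpt1a, Cpt2, Acox3, Ehhadh, Ppara and Pdk4 throughout; up to 4 other pathway genes are named per KO comparison, and some that the rule names are not reported here. Genes named for libraries that do not overlap, such as Acaa1b and Ucp3, were chosen after their values were seen. Positions are from GENCODE M21 (GRCm38); 23 of the 39 members overlap another annotated gene, whose reads may be shared, and sharing of 50-base windows was counted over GENCODE transcripts.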

Additional observations from a re-analysis of the deposited data

Results flagged for a closer look

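The KO effect of 20 comparisons of a member between 2 cell types differed by the test of the difference itself (limma, adjusted p under 0.05), each given here as a log2 difference of differences. In the order below they were 6, 7 and 7 of 38 members, against 12.5%, 16.8% and 13% of all tested genes. The numbers called were thus near the background. Groups of 2 or 3 libraries are too small for a test of single outlying libraries. For lung minus spleen CD11b DCs the KO effect was higher for Acadl, 0.96 (adjusted p = 0.00136), and Ucp2, 0.58 (adjusted p = 0.0205). It was lower for Acox3, -0.58 (adjusted p = 0.00642), Cpt1a, -0.84 (adjusted p = 0.0122), Decr2, -1.002 (adjusted p = 0.0328), and Hsd17b4, -0.43 (adjusted p = 0.0383). Cpt1a and Acox3 lost their call without spleen CD11b DC KO library 1 (-0.71, adjusted p = 0.0831, and -0.47, adjusted p = 0.057). Ucp2 lost its call without that library, spleen CD11b DC WT library 2, KO library 2 or lung CD11b DC WT library 1 (0.36 to 0.60, adjusted p = 0.0515 to 0.203).

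For alveolar macrophages minus lung CD11b DCs the KO effect was lower for Ucp2, -0.75 (adjusted p = 0.000755), Acadl, -0.79 (adjusted p = 0.00127), Eci2, -0.72 (adjusted p = 0.00569), Acaa1a, -0.58 (adjusted p = 0.00792), and Ucp3, -3.57 (adjusted p = 0.0171). It was higher for Decr2, 1.07 (adjusted p = 0.00819), and Acsl3, 1.78 (adjusted p = 0.0175). Ucp2 thus fell in alveolar macrophages (-0.55) while its libraries in KO lung CD11b DCs all lay above WT (0.20, adjusted p = 0.161). The value for Ucp3 rests on 3 reads in WT lung CD11b DCs.

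For inflammatory minus lung CD11b DCs it was lower for Acadl, -1.15 (adjusted p = 4.81e-05), Ucp3, -4.70 (adjusted p = 0.00316), and Etfa, -0.47 (adjusted p = 0.0238). It was higher for Cat, 0.58 (adjusted p = 0.00287), Acsl1, 0.98 (adjusted p = 0.00542), Decr2, 1.08 (adjusted p = 0.0106), and Hsd17b4, 0.43 (adjusted p = 0.0204). The value for Ucp3 again rests on few reads in lung CD11b DCs, 3 in WT and 45 in KO. Acsl1 lost its call in the limma fit of only the groups compared (adjusted p = 0.0572).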

How the results depend on the processing

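Counts of called members stayed within 1.5 times the reported count under another pseudocount (0.25 or 8), no filter on low values, TMM scaling and edgeR on the recovered reads. Scaling to equal totals called 1 member for the difference between the 2 spleen subsets in place of 0. Array weights called 5 members in KO spleen CD11b DCs, 6 in lung CD11b DCs, 25 in alveolar macrophages, 6 in inflammatory DCs and 1 for the difference between the spleen subsets. DESeq2 called 3 in KO spleen CD11b DCs, 4 in inflammatory DCs and 1 for the difference between the spleen subsets. A fit of only the groups compared called 0 in KO spleen CD8a DCs, 3 in lung CD11b DCs, 27 in alveolar macrophages, 0 in inflammatory DCs, 3 for WT CD8a against CD11b spleen DCs, 7 for WT lung against spleen CD11b DCs, 0 for the difference between lung and spleen CD11b DCs and 3 for that between inflammatory and lung CD11b DCs; the number of libraries behind the spread falls with it.

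Without each library in turn, the members called numbered 1 to 5 in KO spleen CD8a DCs, 0 to 1 in spleen CD11b DCs, 7 to 17 in lung CD11b DCs, 11 to 13 in alveolar macrophages, 1 to 3 in inflammatory DCs and 12 to 15 for the mean over cell types. For the WT comparisons they numbered 8 to 14 between spleen subsets, 14 to 20 for lung against spleen CD11b DCs, 33 to 34 for alveolar macrophages and 24 to 28 for inflammatory DCs. For the differences of KO effect they numbered 0 to 1, 2 to 6, 6 to 10 and 6 to 11, in the order spleen subsets, lung against spleen, alveolar macrophages and inflammatory DCs. Counts fell to 1 in KO inflammatory DCs without WT library 1, WT library 3 or KO library 3, and rose to 1 in spleen CD11b DCs without WT library 1. The call counts for lung CD11b DCs moved by over 1.5 times without KO library 1 (17) and without WT library 1, KO library 2 or KO library 3 (7), for lung against spleen CD11b DCs without spleen CD11b DC KO library 1 (2) and for inflammatory against lung CD11b DCs without lung CD11b DC WT library 2 (11). A group left with 1 library is assumed to vary like the others.

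Of 813 values of single genes under the settings other than leaving out a library, 770 kept direction and side of the threshold, 34 lost their call, 8 gained one and 1 changed sign. That one was Acox3 in KO inflammatory DCs with array weights (-0.012), which also changed sign without WT library 1 (-0.023) or KO library 3 (-0.033). Cpt2 in KO spleen CD8a DCs changed sign without WT library 1 (-0.11) or KO library 1 (-0.021), and in spleen CD11b DCs without WT library 1 (0.008) or KO library 1 (0.13). Over the fits without 1 library, Cpt2 ranged from -0.11 to 0.31 in spleen CD8a DCs and from -0.29 to 0.13 in spleen CD11b DCs, and Acox3 in inflammatory DCs from -0.033 to 0.087. None of these was called. The cause of these changes was not tested. No paired analysis was possible because the labels number the libraries 1 to 26 with no number shared between groups. With 2 libraries a side, simulated 2-fold changes were found in 46.6% (spleen CD8a DCs) and 46.8% (spleen CD11b DCs) of genes, so an uncalled member there may still have changed.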
